A study of Canis lupus with 20 samples.

Results

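The 9 glycolytic enzyme genes HK2, PFKM, ALDOA, GAPDH, PGK1, ENO1, ENO3, LDHA and LDHB were followed in the left atrium and the left ventricle of dogs after removal of the right kidney or a sham operation. Members were all probe sets, outside the array maker's controls, that the annotation table pairs with 1 of these symbols and no other. This gave 16 of 42924 probe sets, for 8 of the 9 genes and of the 15115 genes on the array with such a probe set. LDHB, the heart-type subunit of lactate dehydrogenase, is listed on 2 probe sets that also carry other symbols, so no value is given for it. ENO1 had 4 probe sets, PGK1 had 3, HK2, ALDOA and LDHA had 2 each, and PFKM, GAPDH and ENO3 had 1 each.

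Glycolysis splits glucose into pyruvate in the cytosol and yields ATP without oxygen. Hexokinase traps glucose in the cell, phosphofructokinase commits it to the pathway, aldolase splits the sugar, and the later enzymes, among them glyceraldehyde-3-phosphate dehydrogenase, phosphoglycerate kinase and enolase, harvest the energy. Lactate dehydrogenase interconverts pyruvate and lactate. Several steps are encoded by more than one gene, with a widely used form and a form of striated muscle. The adult heart draws most of its ATP from fatty acids and uses glucose and lactate beside them. These roles are known from work in human and rodent tissue.

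The 4 groups were left atrium after right-sided uninephrectomy (UNX), left atrium after sham operation, left ventricle after UNX and left ventricle after sham operation, with 5 Affymetrix canine arrays each and tissue taken 12 weeks after surgery. The labels call the animals normal dogs and give no breed, sex or age. They assign 6 dogs to each operation, do not say which dog an array came from, and name no technical replicates, so the spread between arrays was taken as the spread between animals. All values are log2 signals as deposited, so a difference of 1 is a doubling of signal, and levels of different probe sets were not set against each other.

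Array medians over all probe sets, controls included, lay between 2.33 and 2.39. Correlations between arrays lay between 0.963 and 0.995, and no pair of arrays was identical. Over the tested probe sets alone the medians differed between the chambers, which is taken up with the processing below. The chamber labels fitted the markers, since 4 of 5 measured atrial markers were called higher in atrium and 4 of 4 ventricular markers lower, in UNX and in sham dogs. The gap between 3′ and 5′ (or middle) control probe sets, a measure of RNA integrity and labelling, averaged 1.10 ± 0.26 log2 units in UNX atria, 1.19 ± 0.19 in sham atria, 1.14 ± 0.15 in UNX ventricles and 1.42 ± 0.27 in sham ventricles (SD, n = 5 each). In an exact two-sided permutation test the gap of UNX against sham ventricles gave p = 0.0635 (adjusted over 4 comparisons 0.254, smallest p possible 0.00794), and the other 3 comparisons gave p of 0.159 or more.

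All 16 probe sets had enough signal to be tested. The brightest probe set of each gene, the one with the highest mean over the 20 arrays, stands for the gene below. For 6 of the 8 genes this probe set was above log2 8. HK2 averaged 3.33 over all arrays, near the low end of the scale, and its second probe set averaged 1.92. GAPDH had a single probe set among the members, at 2.79, although the maker's 6 GAPDH control probe sets averaged 12.8 to 14.6. A dim probe set of this kind says little about its message, and GAPDH is therefore also described by its controls.

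**Figure D1:**
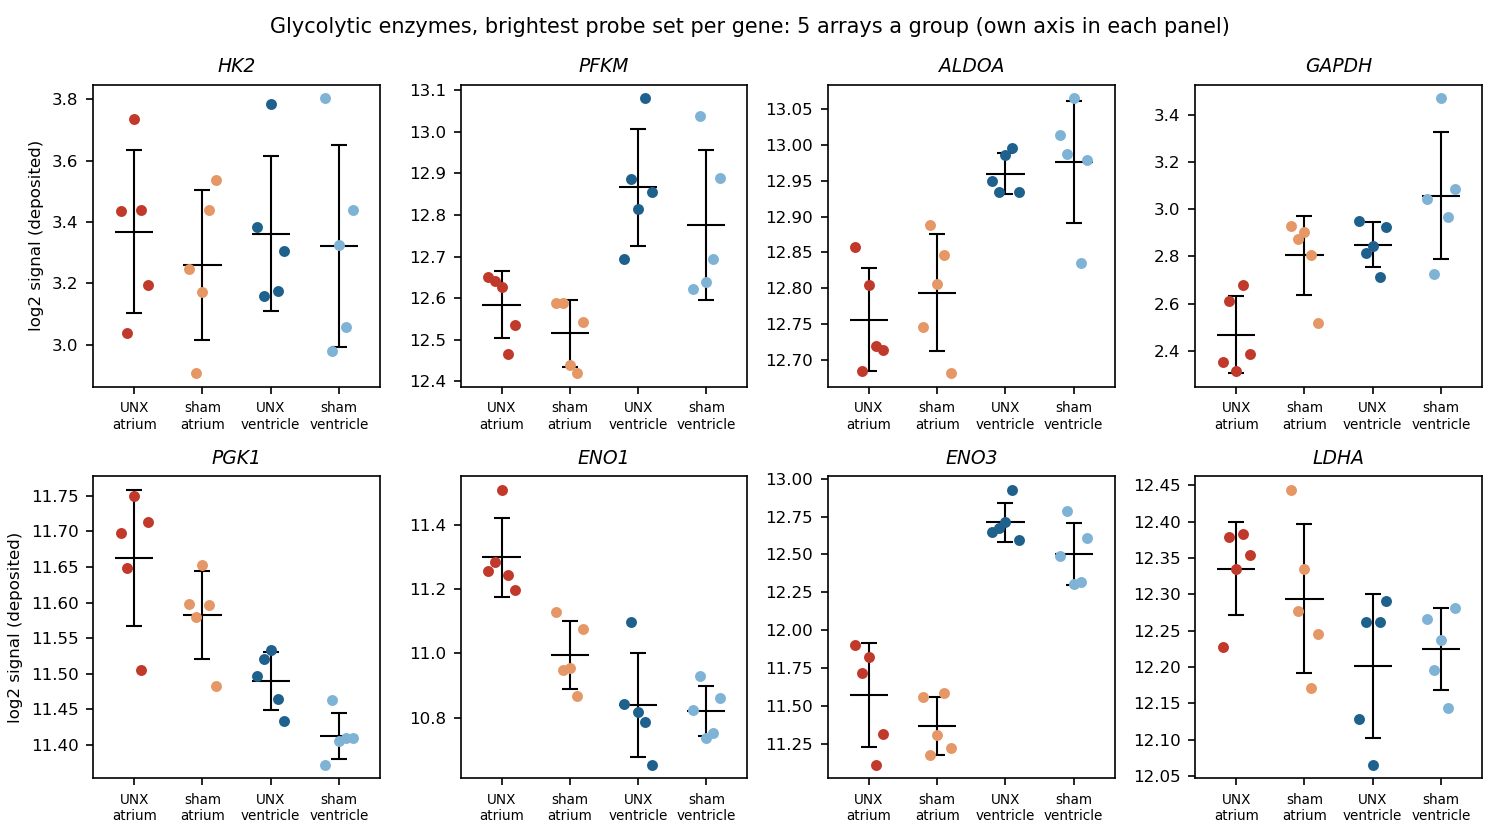
Log2 signal of the brightest probe set of each of 8 glycolytic genes on every array, with the groups in the order UNX atrium, sham atrium, UNX ventricle and sham ventricle; points are arrays, bars are means and whiskers SD (n = 5), and each panel has its own axis. ENO3 lies lower on all 10 atrial arrays than on all 10 ventricular ones, and ENO1 is highest in UNX atria.

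The first comparison asked whether removal of a kidney was followed by a change in these enzymes in either chamber. No member was called: 0 of 16 probe sets passed an adjusted p of 0.05 in the atrium, in the ventricle or in the difference between the chambers' responses (limma with Benjamini-Hochberg adjustment over 30047 probe sets). The same held for all tested probe sets, of which 0% were called in each of these 3 contrasts. Leaving out single arrays gave 1 call in the atrium (without sham atrium 5) and, in the ventricle, 4 calls (without sham ventricle 1) or 1 call (without UNX ventricle 1 or 4), none of them a member. Without adjustment, 6.69% of all tested probe sets had p under 0.05 in the atrium, 6.67% in the ventricle and 2.97% for the difference. Among the 16 members 4 did so in the atrium, 0 in the ventricle and 1 for the difference. Those in the atrium were the ENO1 probe sets other than its dimmest, which measure the same message, and the dim GAPDH probe set. The count therefore does not stand for 4 genes. That for the difference was the brightest ENO1 probe set. The members' median log2 difference was 0.07 in the atrium and 0.06 in the ventricle, where the medians of all tested probe sets were -0.003 and -0.005.

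ENO1, the widely expressed enolase, showed the clearest separation between operations. Its brightest probe set read 11.26, 11.28, 11.51, 11.24 and 11.20 in the UNX atria. It read 11.13, 10.95, 10.95, 10.87 and 11.08 in the sham atria. Every UNX atrium was above every sham atrium, which happened for 1 of the 8 genes and for 0.928% of all genes tested. The difference was 0.30 ± 0.08 log2 units (SE, 95% confidence interval 0.14 to 0.47, 1.23-fold) and was not called (unadjusted p = 0.00126, adjusted p = 0.637).

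The other ENO1 probe sets, numbered by brightness, gave different sizes. Set 2, with a mean of 9.06, was 0.27 ± 0.10 higher in UNX than in sham atria and set 3, with a mean of 8.48, 0.57 ± 0.25 higher, both with overlapping groups (adjusted p = 0.679 and 0.735). The dim set 4, at 2.68, differed by -0.06 ± 0.09. The 3 brighter probe sets thus pointed the same way, and they measure the same message in the same RNA.

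In the ventricle ENO1 read 10.84, 11.10, 10.82, 10.79 and 10.65 after UNX and 10.82, 10.93, 10.74, 10.75 and 10.86 after sham operation. These groups overlapped, as they did for all 8 genes in the ventricle (0.91% of all genes did not overlap there), and their difference was 0.02 ± 0.08 (95% confidence interval -0.15 to 0.19). The response of the atrium exceeded that of the ventricle by 0.28 ± 0.11 (95% confidence interval 0.05 to 0.52), with an unadjusted p of 0.0211 and an adjusted p of 1.00, so a difference between the chambers' responses was not shown. For ENO1 sets 2 and 3 the same contrast gave 0.14 ± 0.14 and 0.14 ± 0.36.

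Markers of cell types in the same contrast are given beside ENO1, and no gene of these lists was called. Of 7 measured fibroblast genes 7 were higher in UNX than in sham atria and 0 were called, with a median difference of 0.41. Their mean level ranged from 9.94 to 10.71 in UNX atria and from 9.17 to 10.40 in sham atria, and none of the 7 had a mean under log2 3. Macrophage markers were higher for 8 of 9 genes, with a median of 0.21 and none called, and 5 of the 9 were dim, with a mean under log2 3. Adipocyte markers were lower in UNX than in sham atria for 6 of 6 genes, with a median of -0.27, and 3 of the 6 were dim. Of 5 atrial cardiomyocyte markers 4 were lower, with a median of -0.10, and of 11 general cardiomyocyte markers 7 were lower, with a median of -0.03. Of 4 ventricular cardiomyocyte markers 2 were higher, MYL3 (1.12 ± 0.72) and MYL2 (0.91 ± 0.57), with a median of 0.45 for the list. Endothelial markers were higher for 3 of 8 genes, with a median of -0.06. Smooth muscle and pericyte markers were higher for 3 of 7, with a median of -0.03. The part of these cells in the ENO1 values was not tested, and in whole tissue fewer cells of a type and less message per cell cannot be told apart.

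ENO3, the enolase of striated muscle, differed by 0.20 ± 0.14 between UNX and sham atria (adjusted p = 0.805) and by 0.21 ± 0.14 between UNX and sham ventricles (adjusted p = 0.785). The 95% intervals, -0.09 to 0.50 and -0.08 to 0.51, both include 0. PFKM, the muscle phosphofructokinase, differed by 0.07 ± 0.08 in the atrium and 0.09 ± 0.08 in the ventricle. ALDOA, the aldolase of muscle and most other tissues, differed by -0.04 ± 0.06 and -0.02 ± 0.06, and LDHA, the lactate dehydrogenase subunit typical of skeletal muscle, by 0.04 ± 0.06 and -0.02 ± 0.06.

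PGK1, phosphoglycerate kinase, differed by 0.08 ± 0.05 between UNX and sham in each chamber. Its 2 dim probe sets differed by -0.05 and -0.14 in the atrium and by 0.02 and -0.04 in the ventricle, so the sign is not shared. HK2, the insulin-responsive hexokinase, differed by 0.11 ± 0.17 and 0.04 ± 0.17. For ALDOA, PGK1 and LDHA the 95% intervals of the brightest probe sets lay between -0.15 and 0.19 in both chambers.

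GAPDH's dim probe set read 2.35, 2.61, 2.32, 2.68 and 2.39 in UNX atria, against 2.93, 2.87, 2.90, 2.80 and 2.52 in sham atria. In UNX ventricles it read 2.95, 2.81, 2.84, 2.71 and 2.92, against 3.04, 2.73, 3.47, 2.96 and 3.08 in sham ventricles. The UNX values were lower with overlap in both chambers, by -0.34 ± 0.11 in the atrium (unadjusted p = 0.0085, adjusted p = 0.663) and -0.21 ± 0.11 in the ventricle (adjusted p = 0.758). The 6 bright GAPDH controls did not share this: they differed by -0.08 to 0.06 in the atrium and by -0.05 to 0.14 in the ventricle, and 0 of 6 were called.

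**Figure D2:**
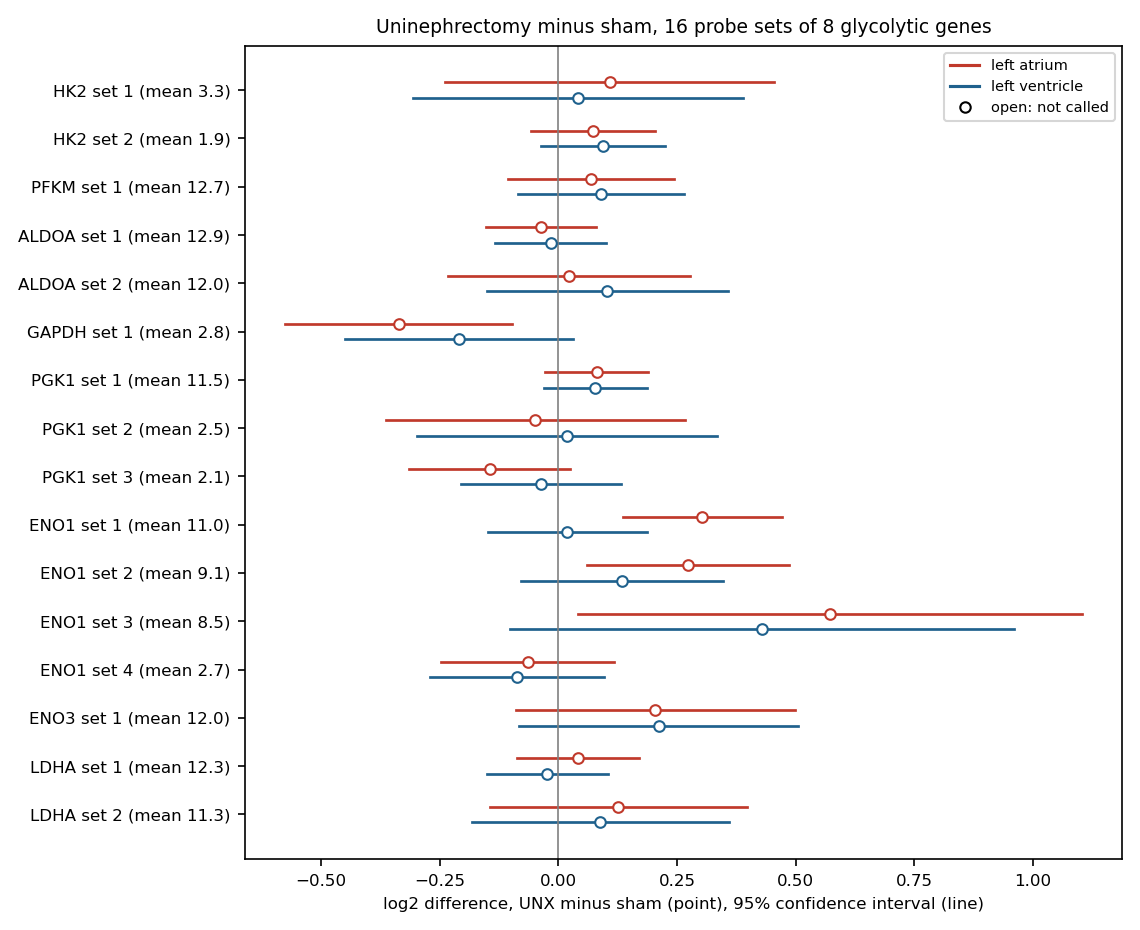
Log2 difference of UNX minus sham for all 16 probe sets, in the left atrium (red) and the left ventricle (blue), with 95% confidence intervals; probe sets of a gene are numbered by brightness and their mean log2 signal is in brackets. All points are open because none was called, and the 3 brighter ENO1 probe sets have atrial intervals above 0.

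The second comparison set atrium against ventricle in the animals of each operation, and here some of the enzymes were called. In UNX dogs 6 of the 8 genes were called, ENO1 and PGK1 higher in atrium and PFKM, ALDOA, GAPDH (dim probe set) and ENO3 lower, and 5 had groups that did not overlap. Calls were common in this contrast: 29.9% of all genes tested were called (16.2% higher and 13.7% lower in atrium), 48.3% of genes above log2 8, and 23.5% did not overlap. In sham dogs 4 of the 8 genes were called, PGK1 higher in atrium and PFKM, ALDOA and ENO3 lower, where 22.8% of all genes (12% higher and 10.8% lower) and 39.9% of those above log2 8 were called. There 3 genes did not overlap, against 15.8% of all genes. Of the 8 genes 6 lay above log2 8. The 4 calls in sham dogs all fell among these 6, beside the 39.9% of such genes. In UNX dogs each of these 6 but LDHA was called, beside 48.3%. Both shares lay above those of genes above log2 8, but they rest on 6 genes and were not tested. The counts are therefore not read as a trait of these enzymes.

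ENO3 had the largest chamber difference of the 8 genes. In UNX dogs its probe set read 11.91, 11.72, 11.82, 11.11 and 11.31 in the atria, against 12.65, 12.68, 12.71, 12.93 and 12.60 in the ventricles. In sham dogs it read 11.56, 11.18, 11.31, 11.59 and 11.22 in the atria, against 12.49, 12.79, 12.30, 12.32 and 12.61 in the ventricles. All 10 atria lay below all 10 ventricles, and the UNX atria were the most spread of the 4 groups. The atrium was lower by -1.14 ± 0.14 log2 units in UNX dogs (2.20-fold lower, adjusted p = 8.08e-06) and by -1.13 ± 0.14 in sham dogs (2.19-fold lower, adjusted p = 1.18e-05). The difference between these contrasts was -0.01 ± 0.20 (95% confidence interval -0.42 to 0.41), and the call held under each of 30 alternative settings in both.

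The order of ENO3 means was 12.71 in UNX ventricles, 12.50 in sham ventricles, 11.57 in UNX atria and 11.37 in sham atria. Neighbours within a chamber overlapped. ENO3 ran opposite to the array's 3′ gap: its deviations from the group means had a Pearson correlation of -0.76 with those of the gap over the 20 arrays, given as a description. With the gap in the fit the atrium was lower by -1.17 in UNX dogs and -1.31 in sham dogs, with adjusted p of 1.07e-07 and 9.64e-08.

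ENO1 went the other way in UNX dogs. From the values above, all 5 UNX atria lay above all 5 UNX ventricles, with a difference of 0.46 ± 0.08 (1.37-fold higher, adjusted p = 0.000291). In sham dogs the groups overlapped and the difference of 0.17 ± 0.08 was not called (adjusted p = 0.136). The means ran 11.30 in UNX atria, 10.99 in sham atria, 10.84 in UNX ventricles and 10.82 in sham ventricles, and only the first of these stood clear of its neighbour.

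The probe sets of ENO1 disagreed on the chamber difference. Set 2 was 0.28 ± 0.10 higher in atrium in UNX dogs (adjusted p = 0.0510) and 0.14 ± 0.10 in sham dogs, without a call. Set 3 gave -0.08 ± 0.25 and -0.23 ± 0.25, and the dim set 4 gave -0.13 and -0.15. With the mean of the gene's 4 probe sets in place of the brightest, the ENO1 difference in UNX dogs was 0.13 and no longer called (adjusted p = 0.393).

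The within-array gap of ENO3 minus ENO1 shows both genes on the same RNA. It was 0.65, 0.44, 0.31, -0.13 and 0.12 in UNX atria and 0.43, 0.23, 0.36, 0.72 and 0.14 in sham atria. It was 1.80, 1.58, 1.90, 2.14 and 1.94 in UNX ventricles and 1.66, 1.86, 1.57, 1.56 and 1.75 in sham ventricles. Every atrium had a smaller gap than every ventricle, and the operations overlapped within each chamber. The means were 0.28 ± 0.30 in UNX atria, 0.38 ± 0.22 in sham atria, 1.87 ± 0.21 in UNX ventricles and 1.68 ± 0.13 in sham ventricles (SD, n = 5 each). No test is given for this gap, and because the probe sets differ in brightness its zero is not a point of equal message.

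PFKM, which controls the committed step, was lower in atrium. It read 12.65, 12.64, 12.63, 12.47 and 12.54 in UNX atria, against 12.69, 12.89, 12.81, 13.08 and 12.85 in UNX ventricles. It read 12.59, 12.59, 12.44, 12.42 and 12.54 in sham atria, against 12.62, 13.04, 12.64, 12.69 and 12.89 in sham ventricles. The chambers did not overlap in either operation, though the lowest ventricles were close to the highest atria. The differences were -0.28 ± 0.08 in UNX dogs (1.22-fold lower, adjusted p = 0.0170) and -0.26 ± 0.08 in sham dogs (1.20-fold lower, adjusted p = 0.0325).

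ALDOA was lower in atrium by a smaller amount. It read 12.86, 12.69, 12.81, 12.72 and 12.71 in UNX atria, against 12.95, 12.93, 12.99, 13.00 and 12.93 in UNX ventricles. It read 12.75, 12.89, 12.81, 12.85 and 12.68 in sham atria, against 13.01, 12.99, 13.07, 12.84 and 12.98 in sham ventricles. The UNX groups were apart, and in sham dogs 1 ventricle fell among the atria. The differences were -0.20 ± 0.06 in UNX dogs (adjusted p = 0.0101) and -0.18 ± 0.06 in sham dogs (adjusted p = 0.0244), and the second ALDOA probe set gave -0.24 ± 0.12 and -0.16 ± 0.12 without a call.

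PGK1 was higher in atrium. It read 11.70, 11.65, 11.75, 11.50 and 11.71 in UNX atria, against 11.50, 11.52, 11.53, 11.46 and 11.43 in UNX ventricles. It read 11.60, 11.58, 11.65, 11.60 and 11.48 in sham atria, against 11.37, 11.46, 11.41, 11.41 and 11.41 in sham ventricles. The sham groups were apart, and in UNX dogs 1 atrium lay within the range of the ventricles. The difference was 0.17 ± 0.05 in each operation (adjusted p = 0.0183 in UNX dogs and 0.0254 in sham dogs). It was 0.09 in each, and not called, once the arrays were shifted to the same median (adjusted p = 0.213 and 0.239), and the 2 dim PGK1 probe sets were lower in atrium.

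In sham dogs the calls of PFKM, ALDOA and PGK1 were near the threshold. In these dogs an atrium and a ventricle that share a number deviated together, and with the number as a replicate block the adjusted p became 0.0550 for PFKM, 0.0642 for ALDOA and 0.0597 for PGK1. ENO3 stayed called with the block, at 0.000741. All 6 genes called in UNX dogs stayed called with it too, but there 0 of 5 atria deviated most like the ventricle of their number. The block in UNX dogs, here and below, therefore cannot show whether a call survives pairing by dog. Single arrays also decided calls. PFKM lost its call in sham dogs without sham atrium 3, 4 or 5 or sham ventricle 2 or 5, ALDOA without sham atrium 1 or 5 or sham ventricle 1 or 3, and PGK1 without sham atrium 3 or 4 or sham ventricle 1, with adjusted p between 0.0503 and 0.0900. In UNX dogs PGK1 lost it without UNX atrium 3 (adjusted p = 0.0508) and PFKM without UNX ventricle 4 (adjusted p = 0.0541). Not every setting that removed a call is named here. Of 30 alternatives the call in sham dogs was lost in 7 for PFKM, 8 for ALDOA and 8 for PGK1. In UNX dogs PGK1 lost its call in 3 of 30 and changed sign in 1, and PFKM lost its call in 1.

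The GAPDH controls had lower means in atrium than in ventricle, as the dim probe set did. In UNX dogs the 6 controls differed by -0.35 to -0.20 and 6 of 6 were called, with adjusted p between 0.00539 and 0.0484. In sham dogs they differed by -0.27 to -0.17 and 3 of 6 were called. The dim probe set itself gave -0.38 ± 0.11 in UNX dogs (adjusted p = 0.0184) and -0.25 ± 0.11 in sham dogs (adjusted p = 0.131), from the values listed above. The chambers overlapped for most of the controls in each operation, and the 6 controls read the same message in the same RNA. They were not fitted with the replicate block or with an array left out. GAPDH is often used to scale other transcripts. On these arrays its mean signal was lower in atrium, called for all 6 controls in UNX dogs but for only 3 in sham dogs.

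LDHA and HK2 had no call in either operation. LDHA ranged from 12.23 to 12.38 in UNX atria, against 12.07 to 12.29 in UNX ventricles, and from 12.17 to 12.44 in sham atria, against 12.14 to 12.28 in sham ventricles. Its differences were 0.13 ± 0.06 in UNX dogs (adjusted p = 0.115) and 0.07 ± 0.06 in sham dogs (adjusted p = 0.473), and its second probe set gave 0.22 ± 0.13 and 0.18 ± 0.13. HK2 ranged from 3.04 to 3.73 in UNX atria, against 3.16 to 3.78 in UNX ventricles, and from 2.91 to 3.54 in sham atria, against 2.98 to 3.80 in sham ventricles. The groups overlapped widely for both genes.

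Markers of cell types were called between the chambers too. Of 11 measured cardiomyocyte markers 6 were called lower in atrium in each operation, with medians of -0.30 in UNX and -0.30 in sham dogs. After quantile normalization the medians were -0.13 and -0.08, with 5 lower and 1 higher in UNX dogs and 3 lower and 1 higher in sham dogs. TNNC1 lost its call with this setting in both operations and MYBPC3 and PLN theirs in sham dogs, where MYBPC3 also lost it with the replicate block (adjusted p = 0.0780). The mean level of the 11 markers ranged from 13.09 to 13.23 in UNX atria, against 13.39 to 13.56 in UNX ventricles, and from 13.16 to 13.24 in sham atria, against 13.36 to 13.53 in sham ventricles. Of 7 fibroblast markers 6 were called higher in atrium in UNX dogs and 5 in sham dogs, with medians of 1.58 and 1.35. The part of cell composition in the differences of the enzymes was not tested.

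**Figure D3:**
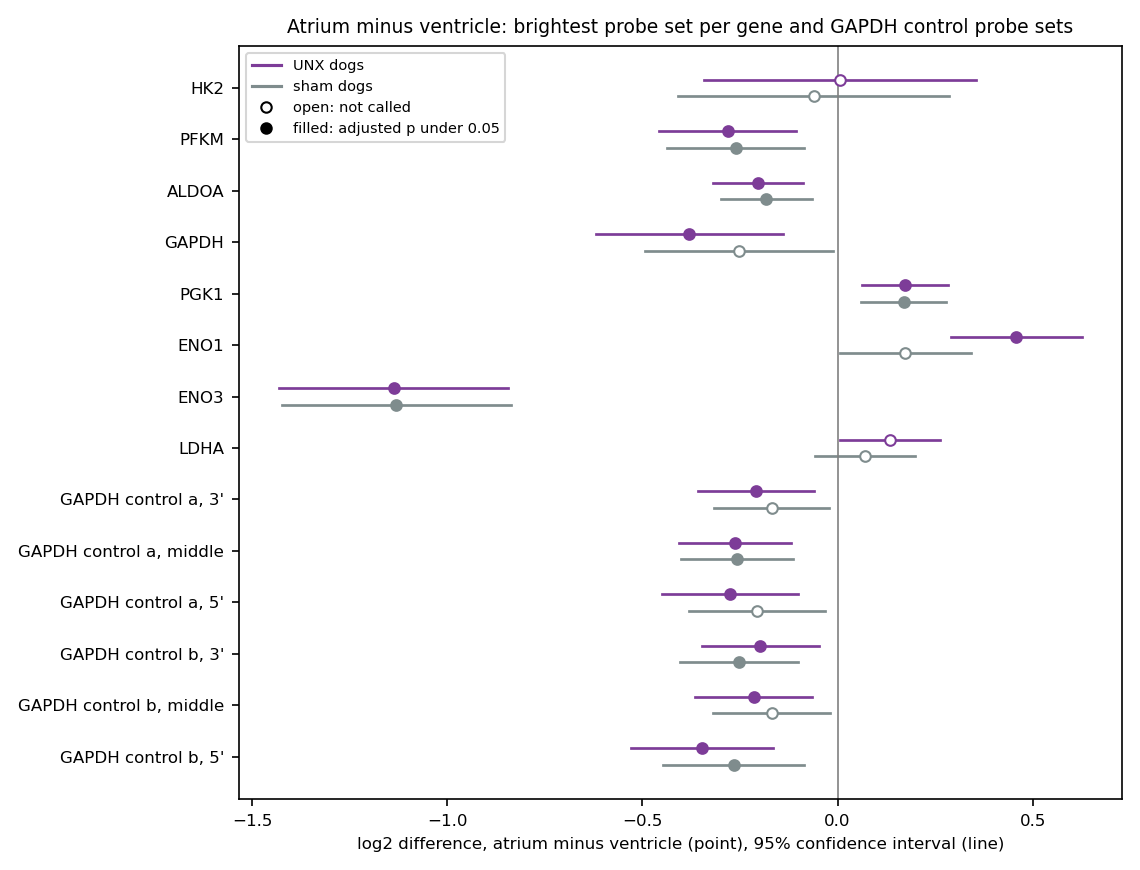
Log2 difference of atrium minus ventricle in UNX dogs (purple) and sham dogs (grey), with 95% confidence intervals, for the brightest probe set of each gene and for the maker's GAPDH controls (a and b are 2 sets of 3); filled points were called. ENO3 is lower in atrium by -1.14 and -1.13, ENO1 and PGK1 lie to the right of 0, and all 6 GAPDH controls lie to the left.

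Genes that encode the same kind of enzyme were then set side by side, a grouping chosen after the values were seen. Phosphoglycerate mutase acts just before enolase. Its widely used form PGAM1 was higher in atrium by 0.49 ± 0.07 in UNX dogs (adjusted p = 3.29e-05) and 0.38 ± 0.07 in sham dogs (adjusted p = 0.000596). Its muscle form PGAM2 was lower by -0.58 ± 0.11 (adjusted p = 0.000473) and -0.47 ± 0.11 (adjusted p = 0.00377).

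Glycogen phosphorylase releases glucose units from glycogen and has 3 genes. The liver form PYGL was higher in atrium by 1.00 ± 0.22 in UNX dogs and 1.40 ± 0.22 in sham dogs. The muscle form PYGM was lower by -1.66 ± 0.32 and -1.36 ± 0.32, and the brain form PYGB by -0.83 ± 0.14 and -0.69 ± 0.14. All 3 were called in both operations, with adjusted p of 0.00493 or less.

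Calls among the remaining genes of this grouping were for ENO2 and HK3. The liver-type phosphofructokinase PFKL was lower in atrium by -0.49 ± 0.22 and -0.33 ± 0.22, without a call, beside the lower PFKM. The brain-type aldolase ALDOC differed by -0.34 ± 0.20 and -0.43 ± 0.20, also without a call. ENO2, the neuronal enolase, was dim, with a mean of 2.59 in UNX atria against 2.89 in UNX ventricles, and was called lower in UNX dogs but not in sham dogs (-0.30 ± 0.08 in UNX dogs and 0.00 ± 0.08 in sham dogs). For its response to surgery, the difference between atrium and ventricle was -0.30 ± 0.12 and not called. HK1 differed by -0.98 ± 0.60 and -0.23 ± 0.60, and HK3 and HKDC1 were near the low end of the scale. HK3 was called lower in atrium in both operations, by -0.33 ± 0.07 in UNX dogs and -0.24 ± 0.07 in sham dogs (adjusted p = 0.0218, and 0.0565 with the replicate block).

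**Figure D4:**
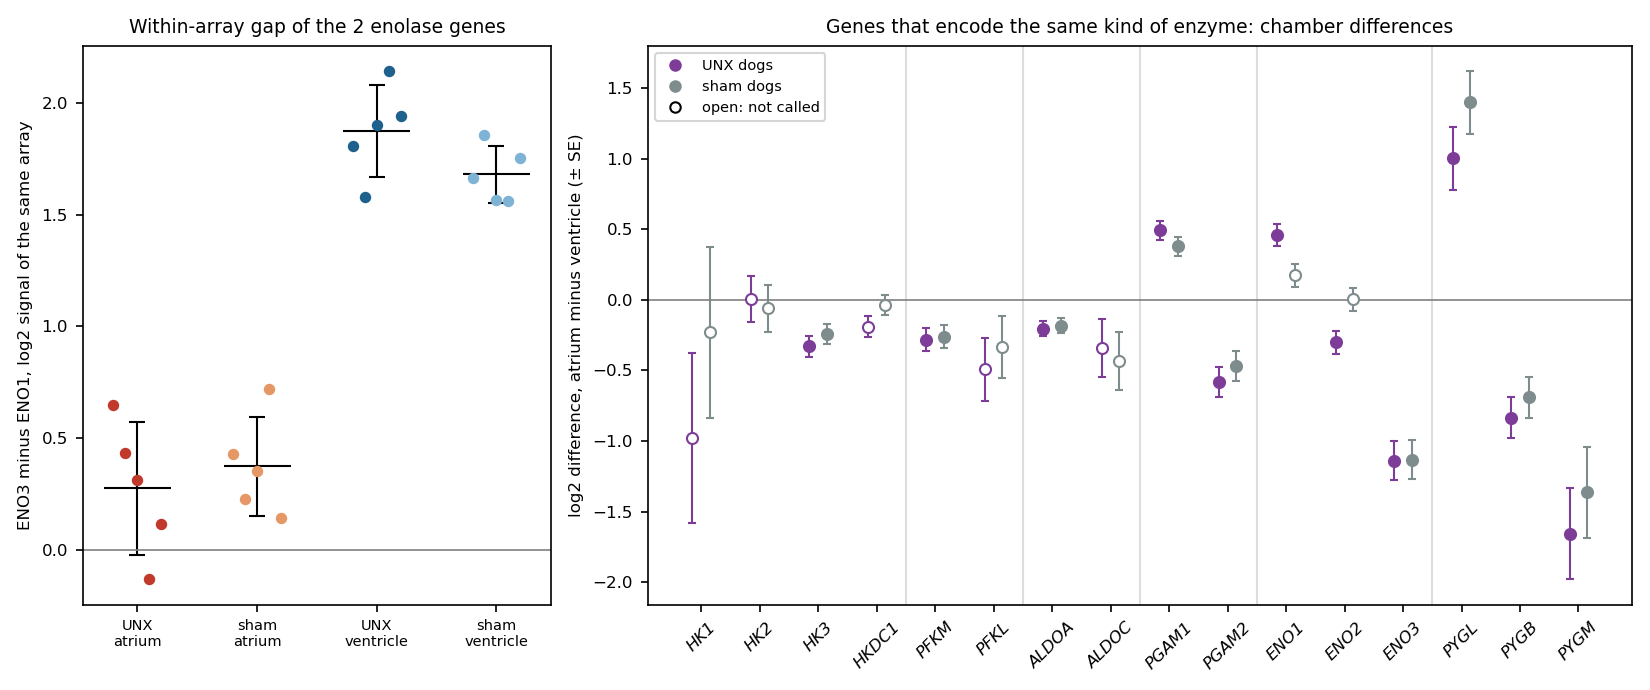
Left, ENO3 minus ENO1 in log2 signal on each array by group, with means and SD (n = 5); right, the log2 difference of atrium minus ventricle (± SE) for genes of the same enzyme, in UNX dogs (purple) and sham dogs (grey), filled where called. Atria lie between -0.13 and 0.72 in the left panel and ventricles between 1.56 and 2.14; PGAM1 and PYGL lie above 0 where PGAM2, PYGM and PYGB lie below it.

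Around the members, 99 genes of 8 lists covering the rest of glucose use had a tested probe set. None was called between UNX and sham in either chamber or for the difference of the responses. Between the chambers 37 were called in UNX dogs, 10 higher and 27 lower in atrium, and 31 in sham dogs, 7 higher and 24 lower. Beside these counts stand the shares over all genes, 29.9% in UNX dogs (16.2% higher and 13.7% lower) and 22.8% in sham dogs (12% higher and 10.8% lower), and the 48.3% and 39.9% of genes above log2 8. The shares called among other glycolytic enzymes, the pentose phosphate pathway, regulators and hypoxia-induced genes were below those of genes above log2 8, and except for regulators in sham dogs near those of all genes, so these counts show nothing particular to the lists. The pyruvate list (8 of 18 in UNX and 7 of 18 in sham dogs) also lay below the share of genes above log2 8. So did the shuttles in UNX dogs (4 of 9) and glucose entry and glycogen in sham dogs (6 of 18). The shuttles in sham dogs (4 of 9) and glucose entry and glycogen in UNX dogs (10 of 18) lay above it. No test of these shares was run. Both contrasts called 25 genes with the same sign, 19 lower and 6 higher in atrium. With the arrays shifted to the same median the calls were 9 higher and 40 lower in UNX dogs and 6 higher and 29 lower in sham dogs. No called gene of these lists changed sign with that shift, with quantile normalization or with the replicate block, and 7 calls were lost among them, named with their genes below or, for DLD and HK3, lost with the block.

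Of 19 measured other glycolytic enzymes 5 were called in UNX dogs, 1 higher and 4 lower in atrium, and 4 in sham dogs, 1 higher and 3 lower. Beside the mutases and the dim ENO2 and HK3, TPI1, triosephosphate isomerase, was lower in atrium in UNX dogs by -0.19 ± 0.07 (adjusted p = 0.0465, and 0.0787 with the replicate block). GAPDHS, a sperm form of GAPDH, was lower in sham dogs by -0.40 ± 0.12 (adjusted p = 0.0195). The median of the 19 was -0.19 in UNX and -0.06 in sham dogs, where that of all genes was -0.02 and -0.01. PKM, pyruvate kinase, was dim, at 2.38 in UNX atria against 2.36 in UNX ventricles, and differed by 0.01 ± 0.26 and 0.04 ± 0.26.

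Among genes of glucose entry and glycogen most calls were lower in atrium. Of 18 measured, 10 were called in UNX dogs, 2 higher and 8 lower, and 6 in sham dogs, 1 higher and 5 lower, with medians of -0.14 and -0.21. SLC2A1, the basal glucose transporter GLUT1, was lower in atrium by -1.63 ± 0.21 in UNX dogs (adjusted p = 1.27e-05) and -1.41 ± 0.21 in sham dogs (adjusted p = 8.01e-05). GBE1, which branches glycogen, was lower by -1.45 ± 0.13 and -1.27 ± 0.13, and PPP1R3A, which brings a phosphatase to glycogen, by -1.44 ± 0.18 and -1.31 ± 0.18. The insulin-responsive transporter SLC2A4 has no probe set of its own symbol and is not given.

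For the fate of pyruvate and lactate, every call was lower in atrium. Of 18 genes 8 were called in UNX dogs and 7 in sham dogs, 6 of them in both, and the medians were -0.27 and -0.31. GPT, which converts pyruvate and alanine, was lower by -2.33 ± 0.32 in UNX dogs (adjusted p = 2.98e-05) and -1.88 ± 0.32 in sham dogs (adjusted p = 0.000350). The lactate transporter SLC16A7 was lower by -0.92 ± 0.24 and -0.89 ± 0.24. The mitochondrial pyruvate carrier genes were lower by -0.33 ± 0.08 and -0.34 ± 0.08 for MPC1 and by -0.38 ± 0.07 and -0.41 ± 0.07 for MPC2.

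PDHX and DLAT, parts of the pyruvate dehydrogenase complex, were lower in atrium too. PDHX differed by -0.70 ± 0.13 in UNX dogs and -0.56 ± 0.13 in sham dogs, and DLAT by -0.54 ± 0.15 and -0.50 ± 0.15, all called. PDK2, a kinase that switches the complex off, was called lower in UNX dogs (-1.08 ± 0.27), and its relative PDK1 in sham dogs (-0.29 ± 0.07). PDK4 differed by -0.20 ± 0.27 and -0.11 ± 0.27 and SLC16A1 by -0.66 ± 0.25 and -0.45 ± 0.25, neither of them called.

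The shuttles that carry the reducing power of glycolysis into mitochondria had 4 calls among 9 genes in each operation, all lower in atrium and the same 4. GPD1L, a relative of glycerol-3-phosphate dehydrogenase, was lower by -2.52 ± 0.31 in UNX dogs (adjusted p = 8.68e-06) and -2.30 ± 0.31 in sham dogs (adjusted p = 3.18e-05). SLC25A13, an aspartate and glutamate carrier, was lower by -1.65 ± 0.22 and -1.21 ± 0.22. GOT2 differed by -0.49 ± 0.13 and -0.45 ± 0.13, and SLC25A11 by -0.44 ± 0.09 and -0.35 ± 0.09.

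Smaller lists gave single calls. RPE, of the pentose phosphate pathway, was higher in atrium by 0.99 ± 0.18 in UNX dogs and 0.60 ± 0.18 in sham dogs, the only call among 4 genes. In sham dogs its adjusted p was 0.0240, and 0.0812 after quantile normalization. FBP2, the muscle fructose bisphosphatase that opposes phosphofructokinase, was the only call among 4 genes of gluconeogenesis. It averaged 5.30 ± 2.64 in UNX atria, 4.21 ± 1.55 in sham atria, 7.54 ± 0.66 in UNX ventricles and 7.75 ± 0.37 in sham ventricles (SD, n = 5 each). The atrium was lower by -3.54 ± 0.93 in sham dogs (adjusted p = 0.00993), while the difference of -2.24 ± 0.93 in UNX dogs was not called (adjusted p = 0.0812), and the UNX atria were widely spread.

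Regulators of glycolytic genes had calls in both directions. Of 15 measured, 5 were called in UNX dogs, 2 higher and 3 lower in atrium, and 5 in sham dogs, 1 higher and 4 lower. HIF1A, the oxygen-sensitive factor that drives many glycolytic genes, was higher by 0.56 ± 0.12 in UNX dogs (adjusted p = 0.00152) and 0.43 ± 0.12 in sham dogs (adjusted p = 0.0118). TXNIP, which restrains glucose uptake, was higher in UNX dogs by 0.55 ± 0.19 (adjusted p = 0.0399, and 0.0505 after the median shift). TIGAR, a phosphatase that slows glycolysis, was lower by -0.69 ± 0.10 and -0.74 ± 0.10, and PRKAA2, a catalytic subunit of the energy sensor AMPK, by -1.22 ± 0.30 and -0.93 ± 0.30.

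The prolyl hydroxylase EGLN3, which marks HIF proteins for removal, was lower in UNX dogs (-1.50 ± 0.53), and EGLN1 (-0.34 ± 0.11, adjusted p = 0.0333, and 0.0676 with the replicate block) and PPARA, a factor for fat-burning genes (-0.80 ± 0.27), in sham dogs. Among 12 hypoxia-induced genes outside glycolysis, 4 were called in UNX dogs and 3 in sham dogs, all higher in atrium. BHLHE40 was higher by 0.61 ± 0.11 and 0.53 ± 0.11 and KDM3A by 0.59 ± 0.13 and 0.41 ± 0.13, the last with an adjusted p of 0.0292, and 0.0543 after the median shift. BNIP3L (0.84 ± 0.13) and the dim ERO1A (0.50 ± 0.10) were called in UNX dogs, and ADM (0.58 ± 0.16) in sham dogs.

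**Figure D5:**
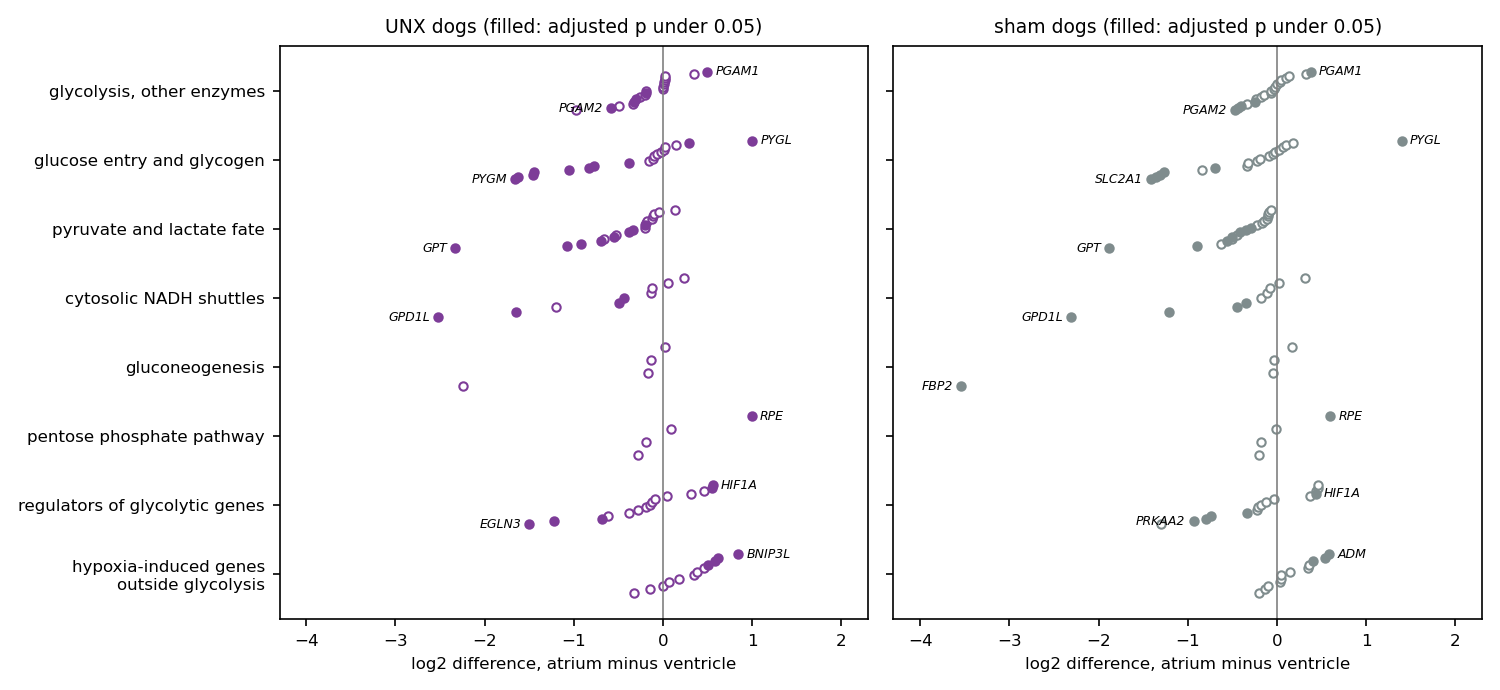
Log2 difference of atrium minus ventricle for 99 genes in 8 lists, in UNX dogs (left) and sham dogs (right); each point is a gene, filled where called, and the called gene farthest to either side of each list is named. Filled points of the pyruvate, shuttle and glycogen lists lie mostly left of 0 (lower in atrium) and those of the hypoxia list right of it.

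The members' deviations between arrays had no common direction. Over the 20 arrays, the 28 pairs of member genes had Pearson correlations of deviations from the group means between -0.55 and 0.59. The highest were 0.59 for PFKM with ENO3 and 0.54 for PGK1 with ENO3, and the lowest was -0.55 for PFKM with the dim GAPDH probe set. These correlations share the arrays' RNA quality and labelling and are given as a description.

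Among 4979 other genes with a mean of at least log2 5, the most like each member by the same measure were as follows. ENO3 was most like DLST (0.88) and IDH1 (0.86), and PFKM was most like HADHA (0.81) and SEC22C (0.78). ALDOA was most like GOT1 (0.78) and SMIM8 (0.78), and PGK1 like AADAC (0.88) and ERAL1 (0.82). ENO1 was most like COPG1 (0.80) and IFGGC1 (0.77), and LDHA like ATP6V1D (0.68) and DUSP11 (0.68). The dim HK2 and GAPDH probe sets were most like C9H17orf99 (0.76) and FANK1 (0.74), and CYB5R3 (0.89) and FAM204A (0.84). Each value was picked as one of the highest among 4979 genes over 20 arrays, so its height alone does not show a link. The dim GAPDH probe set gave the highest of all, and these values too are given as a description.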

How the data were processed

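The report rests on 20 arrays in 4 groups of 5, by surgery and chamber. The authors deposited log2 signals per probe set, which the labels do not describe further; per the labels' protocols total RNA was extracted with Trizol and 100 ng was amplified and labelled for the Affymetrix array. Background correction, summarization and normalization are steps not given in the sources used here, and a difference of dim probe sets depends on it. Detection calls were not used here, and 5 arrays per group limit the precision.

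Values were used as deposited. The 111 control probe sets and the 30% of the remainder with the lowest mean (under 1.87) were left out of the tests, which left 30047. Symbols came from the supplied annotation table. A two-sided test in limma 3.58.1 (eBayes after lmFit, R 4.3.3) was run on all 20 arrays with a mean per group, adjusted by Benjamini-Hochberg over all tested probe sets and called under 0.05. The median SE was 0.11 for differences of groups and 0.15 for the difference of responses. The fit was tried on simulated data with known changes. The simulated noise was independent between arrays and between probe sets, so arrays that share a dog or RNA quality were not covered. GAPDH controls were fitted with the same model and adjusted with the tested probe sets.

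The members and gene lists were chosen with earlier results of these data known. All members were described, by the brightest probe set. In each pathway list the called genes with the largest differences were named, at most 4 a contrast, with SLC2A1, SLC2A4, PKM, PGAM2, PDK4, HIF1A and SLC16A1 always; TPI1, PYGB, MPC1, MPC2, PDK1, TXNIP, EGLN1, PFKL, ALDOC, HK1 and HKDC1 were named after their values were seen. Promoter and protein sequences were not analysed here.

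The labels do not say whether equal numbers mark a dog. Deviations of same-numbered atrial and ventricular arrays correlated at 0.21 to 0.46 in sham dogs, 5 of 5 above 0.1, and at -0.24 to 0.11 in UNX dogs, 1 of 5 above 0.1. The pairing of sham arrays therefore comes from the data. Each UNX atrium correlated most with a ventricle of another number. These were atrium 1 with ventricle 3 (0.44), 2 with 4 (0.32), 3 with 1 (0.17), 4 with 5 (0.54) and 5 with 2 (0.30). Each ventricle appears once among these matches. No fit paired the UNX arrays this way, so the chamber tests in UNX dogs leave such a pairing out. Alternatives covered the filter, normalization, array weights, variance model, 3′ gap, probe set choice, replicate block and each array left out.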

Additional observations from a re-analysis of the deposited data

Results flagged for a closer look

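Of 64 groups of 5 arrays examined for a value far from the others (16 probe sets in 4 groups), 1 stood out. The brightest ENO1 probe set read 11.51 in UNX atrium 3, where the other UNX atria read 11.20 to 11.28. The gap to the nearest value was 0.719 of the group's range, above the limit of 0.71 for 5 samples, which chance passes in about 5% of groups. Without this array the ENO1 difference between UNX and sham atria kept its sign and stayed uncalled, and that between UNX atria and UNX ventricles stayed called.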

How the results depend on the processing

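ENO3 kept its call in both operations under all 30 alternatives, with adjusted p up to 0.000551 in UNX and 0.000741 in sham dogs. For each result 20 of the alternatives leave out 1 array. Where that array is in neither group compared, only the pooled spread can change. Over all named member results 340 of 372 alternatives kept direction and side of the threshold, uncalled results that stayed uncalled among them. Of the rest 28 lost the call and 4 changed sign. Those 4 were GAPDH in UNX against sham atria, at 0.00721, 0.00404 and 0.0594 with bright control probe sets in place of the dim one (an alternative chosen after seeing the data), and PGK1 in UNX dogs' atrium against ventricle, at -0.0295 with the mean of its probe sets. Members called in sham dogs' atrium against ventricle numbered 4; they were 1 with only the groups compared, 1 with the replicate block and 2 with mean probe sets, and 2 to 4 with an array left out. In UNX dogs 5 to 6 members stayed called with an array left out. The count over all probe sets ranged from 7046 to 8433 in UNX dogs and 5244 to 6345 in sham dogs with an array left out, from 0 to 1 for UNX against sham in the atrium, 0 to 4 in the ventricle and 0 to 0 for the difference; the replicate block changed no other call of a member. With 3′ gap from GAPDH controls alone the gap differed by -0.19 between UNX and sham ventricles (p = 0.0159, exact permutation), by 0.15 between UNX atria and ventricles (reversed, p = 0.0159) and by 0.0140 between sham atria and ventricles (reversed, p = 0.897). With an array left out the gap differed by -0.18 to -0.03 for UNX against sham atria, -0.36 to -0.18 for ventricles (exact permutation p = 0.0238 without sham ventricle 1), -0.128 to 0.0107 between chambers in UNX dogs and -0.31 to -0.13 in sham dogs. Shifting arrays to the same median moved the split of calls to 3426 higher and 5994 lower in UNX dogs, against 4429 and 3761 as deposited, and to 2450 and 4447 in sham dogs, against 3367 and 2890. The shift used the medians of the tested probe sets and moves every probe set of a contrast, the members among them, by the same amount. The median chamber difference of the 99 list genes went from -0.15 to -0.23 in UNX dogs and from -0.12 to -0.20 in sham dogs. The cause of these changes was not tested. A fit of only the groups compared was not run for the difference of responses, which uses all groups.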

Other observations

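Some values outside the comparisons above are given as measured. HK1, the widely expressed hexokinase, was the most spread of the hexokinase genes, with 6.03 ± 1.31 in UNX atria, 5.82 ± 0.64 in sham atria, 7.01 ± 0.95 in UNX ventricles and 6.05 ± 1.09 in sham ventricles (SD, n = 5 each), and no call. Among the other marker lists, smooth muscle and pericyte genes had 6 calls among 7 in UNX dogs' atrium against ventricle, 4 higher and 2 lower, and 3 in sham dogs, all higher. Endothelial genes had 2 calls among 8 in each operation, all lower in atrium, of which CLDN5 in UNX dogs was not called with the replicate block (adjusted p = 0.0681). Adipocyte genes had 1 call among 6 in UNX dogs and 3 in sham dogs, all higher in atrium, of which CIDEC in sham dogs was not called after the median shift (adjusted p = 0.0707). Macrophage genes had 1 call among 9 in UNX dogs, CD14, higher in atrium, and 0 in sham dogs. The CD14 call was lost with the replicate block (adjusted p = 0.0558), after quantile normalization (0.0631) and after the median shift (0.134). Of 3 lymphocyte genes the dim NKG7 was called lower in atrium in UNX dogs and 0 were called in sham dogs. The NKG7 call was lost with the replicate block (adjusted p = 0.113) and after quantile normalization (0.0732). Blood cell (3 genes), mesothelial (1 gene) and Schwann and neuronal (2 genes) markers had 0 calls, though with the replicate block 1 Schwann and neuronal marker was called higher in UNX dogs. With the block 1 adipocyte gene was also called lower in UNX dogs, and smooth muscle and pericyte genes had 4 calls higher and 1 lower in sham dogs. None of the 12 marker lists held a called gene between UNX and sham in either chamber.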
